A study of Mus musculus with 6 samples.

Results

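Transcripts of 42 genes of protein folding and stress in the endoplasmic reticulum (ER) were compared between spleens of 2 mouse crosses. The 42 came from a list of 43 chosen by name, with earlier results of these data known. Shares of the list set beside those of all genes are therefore descriptions. Each of the 42 had an array probe set that carried its gene symbol and no other. The brightest such probe set stood for each gene. Sec61g was the member not measured this way. In all, 18193 genes had such a probe set. The spleens came from adult female F1 animals, 3 of an AKR/J by FVB/NJ cross and 3 of a DBA/2J by FVB/NJ cross, and each was hybridised to its own Affymetrix array (AKR 1 to AKR 3 and DBA 1 to DBA 3, called AKR and DBA spleens below). FVB/NJ is the parent that both crosses share, so the crosses differ in the genome inherited from AKR/J or DBA/2J, and the labels name no further allele and no treatment other than the anaesthesia before tissue was taken. The purpose stated for the series is to find basal expression differences between the genotypes. Values are log2 signals, a difference is AKR spleens minus DBA spleens unless stated, and a gene passed when limma gave an adjusted p under 0.05 over all 18193 genes. The labels do not say how animals were housed or grouped, so p-values measure the spread between these samples.

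Proteins that are secreted or inserted into membranes enter the ER through the Sec61 channel, lose their signal peptide, and fold with the help of chaperones and disulfide isomerases. Proteins that fail to fold are passed back to the cytosol for destruction, a route called ER-associated degradation. The unfolded protein response adjusts this machinery through 3 sensors: IRE1, encoded by Ern1, which splices the mRNA of the transcription factor XBP1, PERK, encoded by Eif2ak3, which raises translation of ATF4, and ATF6, which is cut to release a transcription factor. In the spleen this machinery is best known from plasma cells, whose antibody secretion depends on XBP1, and in the pancreas it is abundant in acinar cells, which secrete digestive enzymes.

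The arrays carried spleen transcripts in every sample and pancreatic ones at levels that differed widely. The B cell receptor gene Cd79a lay between 11.57 and 12.09 and the spleen transcription factor Tlx1 between 7.56 and 7.80. Of 26 measured acinar markers, 25 were lowest in array DBA 3. The mean of those 26 was 11.53, 11.62 and 11.69 in AKR spleens, 10.71 and 11.18 in DBA 1 and DBA 2, and 5.16 in array DBA 3. Array medians lay between 5.04 and 5.10, and the SD of an array's values was 2.32 to 2.34 in AKR spleens and 2.26 to 2.28 in DBA spleens.

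ER folding genes tended to lie higher in AKR spleens, by small amounts. In limma, 14 of the 42 genes rose in AKR spleens (33.3%), where 8.91% of all genes did, and 0 rose in DBA spleens, where 8.31% of all genes did. At an unadjusted p under 0.05 these counts were 21 and 0, where 18.4% and 17.8% of all genes lay. The difference was positive for 37 of the 42, with a median of 0.22 against -0.01 over all genes. All 3 AKR arrays lay above all 3 DBA arrays for 25 of the 42 (59.5%), against 22.0% of all genes. The genes that rose were Chac1, Sel1l, Dnajb9, Creld2, Dnajc3, P4hb, Edem1, Derl3, Ern1, Pdia6, Manf, Hspa5, Sec61a1 and Derl2. In whole tissue, fewer cells of a type and less RNA per cell cannot be told apart, here or below. A change of at least 1.5-fold was reached by 3 of them, Chac1, Sel1l and Dnajb9. Without array DBA 3 the median was 0.21 and 38 of the 42 differences were positive. In that fit 5 genes passed (Chac1, Sel1l, Creld2, P4hb and Edem1), all higher in AKR spleens, where 2.94% of all genes were higher in AKR spleens and 3.05% in DBA spleens. The count was 4 without AKR 1, 5 without AKR 2 and 3 without AKR 3, where 1.85%, 3.19% and 2.22% of all genes were higher in AKR spleens. It was 13 without DBA 1 and 4 without DBA 2, where 9.98% and 2.20% of all genes were. Over these 6 fits with 1 array left out, Chac1 and Creld2 passed in 6, P4hb and Sel1l in 5, Edem1 in 3 and Hspa5 in 0. The other 8 genes that rose passed in 1 of the 6.

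**Figure D1:**
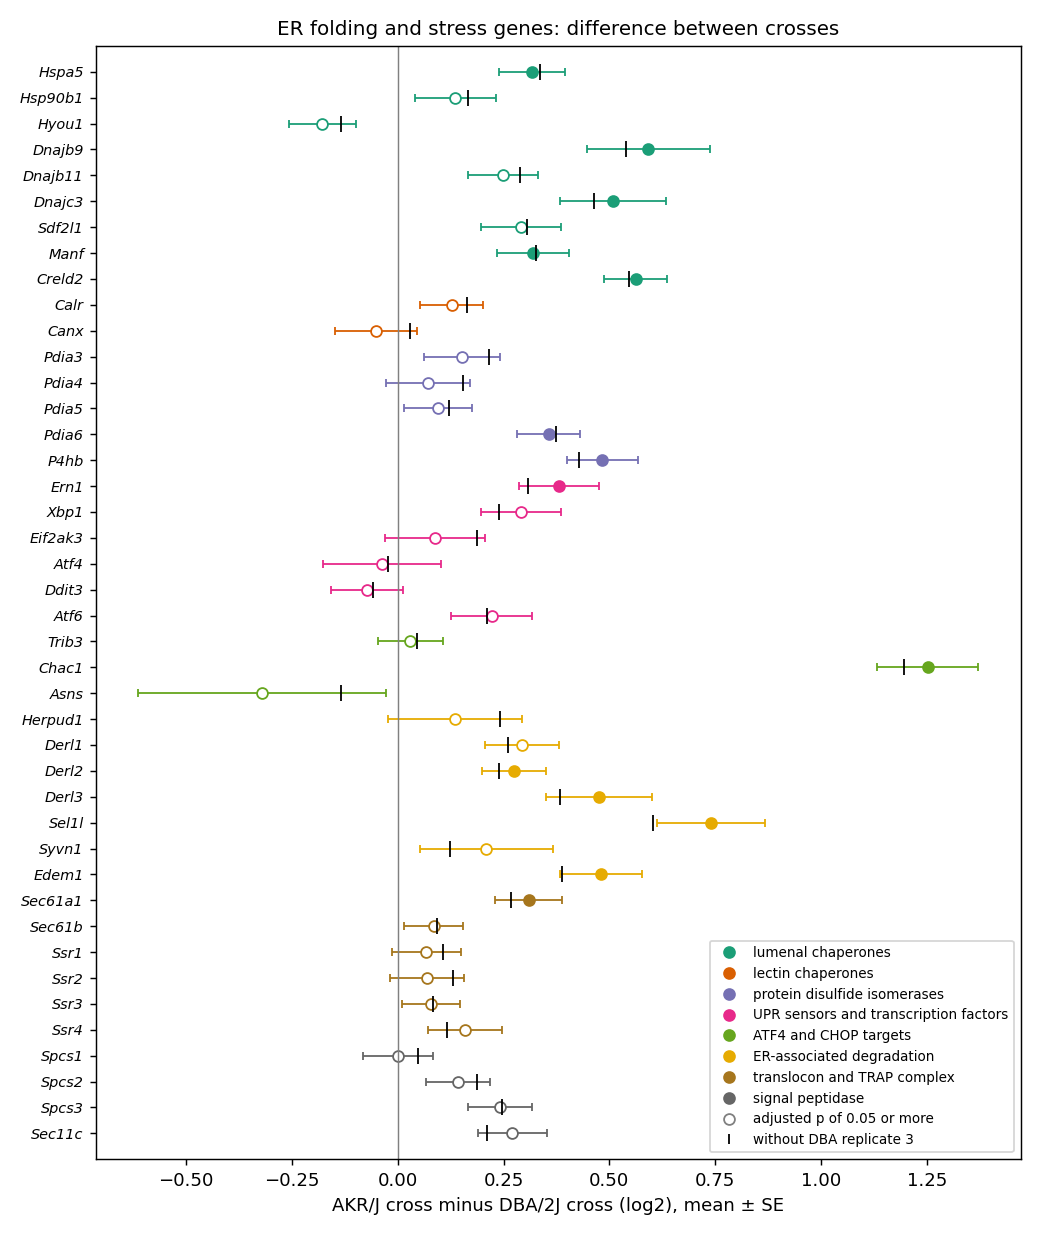
Difference between crosses for each of the 42 genes, AKR minus DBA on the log2 scale (x axis), with bars of 1 SE from limma. Filled circles passed the adjusted p of 0.05, colours give the role, and black ticks give the difference without array DBA 3. Most points lie right of 0, Chac1 lies farthest right at 1.25, and Asns farthest left at -0.32 is open.

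Part of this tilt is shared by other genes of like signal. Among the 4255 genes with a mean of at least 8, the median difference was 0.11 and 13.7% were higher in AKR spleens, and the 34 ER genes in that range had a median of 0.18 with 10 passing. Among the 5150 genes from 6 to 8 the median was 0.10 and 13.9% were higher in AKR spleens, and 3 of the 6 ER genes there passed (Ern1, Creld2 and Derl3). Among the 4200 genes from 4 to 6 the median was -0.11 with 6.64% higher in AKR spleens, and of the 2 ER genes there Chac1 passed and Trib3 did not. After quantile normalization, which gives every array the same distribution, the median over the 42 was 0.13 and 34 differences were positive. In that setting 6 of the 42 passed (14.3%), against 4.21% of all genes: Chac1, Creld2, P4hb, Sel1l, Pdia6 and Edem1.

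Many of these genes are known targets of the same transcription factors, so their promoters are shown. RefSeq promoter windows of build GRCm38.p6, which is the C57BL/6J sequence and not that of the parents here, cover 250 bases before to 50 after a start and were found for 35 of the 43 listed genes. The ER stress response element (ERSE), bound by ATF6 and XBP1 together with NF-Y, has the letters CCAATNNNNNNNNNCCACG. Searched on both strands, as were the other motifs, it stood in the windows of 9 of those 35 genes and in 0.119% of all 32851 windows. Since the list holds known targets of these factors, a higher share among them was likely in advance and is no test. The first count is also of genes and the second of windows. The ERSE is given below in the motif's own direction, with the fixed letters in capitals.
Calr: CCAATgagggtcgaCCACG
Canx: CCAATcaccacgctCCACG
Creld2: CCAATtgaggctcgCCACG
Derl3: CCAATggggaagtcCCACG
Dnajc3: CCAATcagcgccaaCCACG
Hsp90b1: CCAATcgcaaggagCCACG
Hsp90b1: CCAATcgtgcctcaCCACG
Hspa5: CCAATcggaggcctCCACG
Pdia6: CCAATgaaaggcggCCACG
Syvn1: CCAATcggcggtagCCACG

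Of the 9 genes with an ERSE, 5 rose in AKR spleens (Hspa5, Creld2, Dnajc3, Pdia6 and Derl3), and Calr, Canx, Hsp90b1 and Syvn1 did not pass. Of all 34 measured genes with a window, 12 rose. Hsp90b1 held 2 exact copies of the element. Only exact matches were searched, here and for the other motifs, so near matches, such as ccaatcagcggcctccaac in Hspa5, are neither counted nor marked. ERSE-II, with the letters ATTGGNCCACG, stood in 2 of the 35 (Dnajb11 and Herpud1) and in 0.0365% of all windows, and neither gene passed. The XBP1 element with the letters TGACGTGG stood in 0 of the 35 and in 0.676% of all windows. The core TGATGNAA, shared by sites where ATF4 pairs with a C/EBP protein, stood in Asns, Chac1, Herpud1 and Trib3 and in 3.97% of all windows, and of these 4 genes Chac1 rose. No match of these 4 motifs overlapped a match of another. A match describes letters in a reference window and does not show that a factor bound there.
Dnajb11: ATTGGcCCACG
Herpud1: ATTGGgCCACG

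The 250 bases before the start are shown for Hspa5 (chr2:34771840-34772089, plus strand), the best known ERSE gene, for Creld2 (chr15:88819396-88819645, plus strand), which passed in every setting tried, for Chac1 (chr2:119350992-119351241, plus strand), which had the largest difference, and for Herpud1 (chr8:94386179-94386428, plus strand), which holds both an ERSE-II and an ATF4 core. Fixed letters of the motifs are in capitals, and in Creld2 and Chac1, and for the ATF4 core of Herpud1, they read on the opposite strand.
Hspa5: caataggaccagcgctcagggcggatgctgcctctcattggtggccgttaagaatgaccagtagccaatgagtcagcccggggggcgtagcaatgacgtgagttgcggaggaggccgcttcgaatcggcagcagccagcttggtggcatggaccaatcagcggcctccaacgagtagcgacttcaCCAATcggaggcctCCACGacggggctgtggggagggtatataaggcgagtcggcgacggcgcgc
Creld2: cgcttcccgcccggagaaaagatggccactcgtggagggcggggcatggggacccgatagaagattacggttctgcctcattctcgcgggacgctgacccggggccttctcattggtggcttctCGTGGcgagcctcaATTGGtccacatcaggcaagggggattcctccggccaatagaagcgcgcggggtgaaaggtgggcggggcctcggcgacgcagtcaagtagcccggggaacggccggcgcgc
Chac1: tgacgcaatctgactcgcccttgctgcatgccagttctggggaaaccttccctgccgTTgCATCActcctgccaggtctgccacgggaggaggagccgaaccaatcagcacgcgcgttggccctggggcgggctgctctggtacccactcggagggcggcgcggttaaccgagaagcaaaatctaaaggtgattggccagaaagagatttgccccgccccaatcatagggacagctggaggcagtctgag
Herpud1: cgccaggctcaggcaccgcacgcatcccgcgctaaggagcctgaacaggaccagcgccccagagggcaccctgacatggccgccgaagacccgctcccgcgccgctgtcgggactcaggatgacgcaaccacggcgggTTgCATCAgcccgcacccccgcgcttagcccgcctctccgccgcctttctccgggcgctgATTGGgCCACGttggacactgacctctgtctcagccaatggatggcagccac

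Among the 9 lumenal chaperones and their helpers, 5 rose in AKR spleens and 0 rose in DBA spleens, with 7 and 0 at an unadjusted p under 0.05 in limma. Hspa5 encodes BiP, the Hsp70 chaperone of the ER that also holds the stress sensors inactive. Its values were 11.36, 11.35 and 11.20 in AKR spleens and 10.94, 10.99 and 11.03 in DBA spleens. Hspa5 therefore did not overlap between crosses, and differed by 0.32 ± 0.08 (SE; limma adjusted p = 0.033, 1.25-fold). It passed in 5 of 14 other settings and in 0 of the 6 that left out an array, with limma adjusted p between 0.0162 and 0.421. Creld2, which encodes a secreted ER stress protein with disulfide activity, stood at 8.30, 8.22 and 8.17 against 7.65, 7.72 and 7.63. The gap of 0.56 ± 0.07 for Creld2 (limma adjusted p = 0.00691) was well beyond the spread within either cross, and the gene passed in all 14 other settings. Manf, a secreted neurotrophic factor that binds BiP, stood at 10.13, 10.09 and 9.90 against 9.73, 9.69 and 9.73, a difference of 0.32 ± 0.09 (limma adjusted p = 0.0399).

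Of the BiP cochaperones of the J domain family among the 42, Dnajb9 and Dnajc3 rose in AKR spleens and Dnajb11 did not pass. Dnajb9 (ERdj4), which also restrains IRE1, stood at 9.23, 8.70 and 8.71 in AKR spleens and at 8.34, 8.34 and 8.18 in DBA spleens. It differed by 0.59 ± 0.15 (limma adjusted p = 0.0331, 1.51-fold), and array AKR 1 lay well above the other 5 arrays. Dnajc3 (p58IPK), an inhibitor of PERK, stood at 8.92, 8.67 and 8.57 against 8.43, 8.09 and 8.12, a difference of 0.51 ± 0.13. Its 5 probe sets all had positive differences, from 0.35 to 0.51, and 2 of them passed over all probe sets. Dnajb11 (ERdj3) had a difference of 0.25 and Sdf2l1, its partner, of 0.29, and neither passed although their crosses did not overlap.

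Not every chaperone followed. Hsp90b1 (GRP94), the ER Hsp90, had values of 10.59, 10.44 and 10.32 against 10.37, 10.20 and 10.37, which overlap (0.14 ± 0.10). Hyou1 (GRP170), which exchanges the nucleotide of BiP, went the other way, at 8.40, 8.39 and 8.47 against 8.52, 8.59 and 8.69. Its difference of -0.18 ± 0.08 did not pass (limma adjusted p = 0.142), and a dimmer probe set of Hyou1 differed by -0.73 ± 0.10 and passed over all probe sets. The lectin chaperones calreticulin (Calr, 0.13) and calnexin (Canx, -0.05), which hold newly glycosylated proteins, did not pass, and neither had an unadjusted p under 0.05 in limma. The crosses overlapped for Canx but not for Calr, narrowly, at 11.61 in AKR 3 and 11.60 in DBA 3. The dimmer Calr probe sets differed by 0.20 each and did not pass.

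Of the 5 protein disulfide isomerases, which form and rearrange disulfide bonds, 2 rose. P4hb, the founding isomerase and a subunit of prolyl hydroxylase, stood at 10.87, 10.89 and 10.94 in AKR spleens and at 10.40, 10.54 and 10.31 in DBA spleens. The crosses lay well apart (0.48 ± 0.08, limma adjusted p = 0.0138, 1.40-fold), and P4hb passed in 13 of 14 other settings. Pdia6, which also dampens IRE1 and PERK signalling, stood at 9.57, 9.69 and 9.67 against 9.27, 9.27 and 9.32 (0.36 ± 0.07, limma adjusted p = 0.0215). Pdia3, the partner of calnexin and calreticulin, differed by 0.15, Pdia5 by 0.09 and Pdia4 by 0.07, and in all of these the crosses overlapped.

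**Figure D2:**
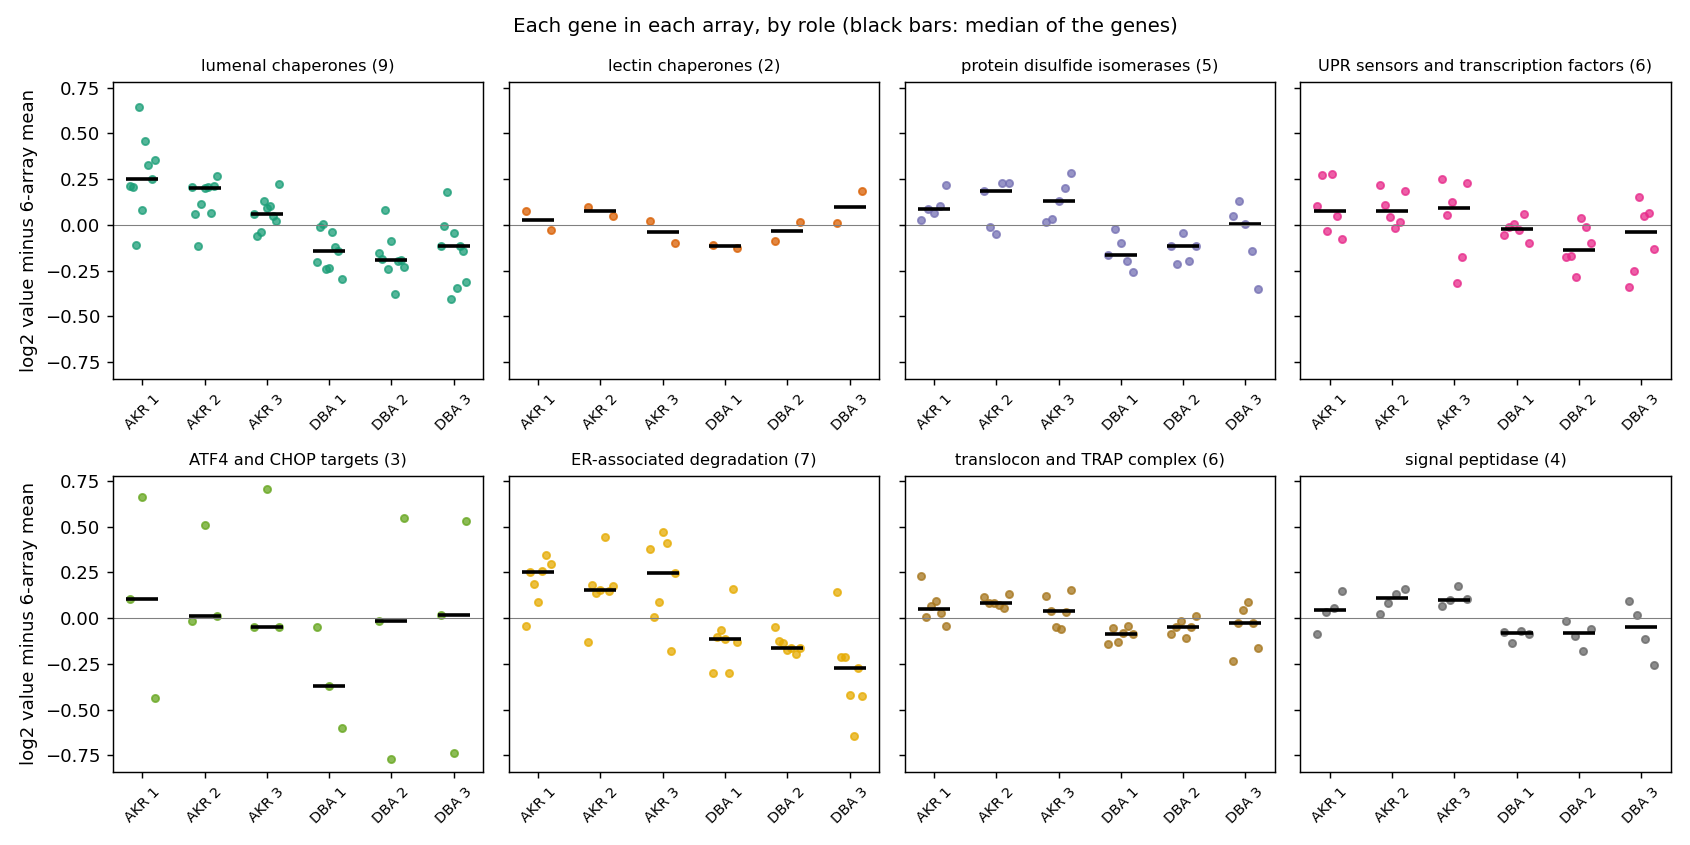
Value of each gene in each array minus its mean over the 6 arrays (y axis, log2), in 1 panel per role with the number of genes in brackets. Each point is a gene, the 3 AKR arrays are at left and the 3 DBA arrays at right, and black bars are medians. Genes of ER-associated degradation sit below 0 in most DBA arrays, and the points of the signal peptidase and translocon panels stay close to 0.

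Among the 6 sensors and transcription factors of the unfolded protein response, Ern1 alone passed. Ern1 stood at 7.61, 7.72 and 7.75 in AKR spleens and at 7.45, 7.33 and 7.16 in DBA spleens (0.38 ± 0.09, limma adjusted p = 0.0332). Its probe sets differed in direction: the next brightest differed by -0.36 ± 0.11 and one near background by -0.39 ± 0.09, the latter past the threshold over all probe sets. With the mean of its probe sets Ern1 differed by -0.06. Xbp1 stood at 11.02, 10.86 and 10.80 against 10.74, 10.58 and 10.50. The crosses did not overlap, but the difference of 0.29 ± 0.10 for Xbp1 did not pass (limma adjusted p = 0.069). A dimmer probe set of Xbp1 passed over all probe sets, at 0.38 ± 0.10. These probe sets measure total Xbp1 signal, and splicing by IRE1 was not measured here.

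Neither PERK nor its transcription factors ATF4 and CHOP passed at the transcript level. Eif2ak3 differed by 0.09 ± 0.12, Atf4 by -0.04 ± 0.14 and Ddit3, which encodes the death-promoting factor CHOP, by -0.07 ± 0.09. Atf6 had a difference of 0.22 ± 0.10 and also did not pass. Atf4 was variable within AKR spleens, at 9.66, 9.37 and 9.07, and lay between 9.36 and 9.44 in DBA spleens. ATF4 is mainly set by translation, so its transcript gives no reading of the protein.

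The 3 downstream targets of ATF4 and CHOP behaved differently from each other. Chac1, which encodes an enzyme that degrades glutathione, stood at 5.90, 5.75 and 5.94 in AKR spleens and at 4.87, 4.47 and 4.50 in DBA spleens. This was the largest difference among the 42, at 1.25 ± 0.12 (limma adjusted p = 0.00238, 2.38-fold). Chac1 passed in all 13 other settings in which it was tested, with adjusted p between 0.000658 and 0.0176, and was left out where dim genes were removed. Without detection calls, Chac1 was not shown to lie above background in DBA spleens, so its fold describes the deposited values. Trib3, a pseudokinase that inhibits ATF4 and CHOP, was dim and hardly varied, between 4.67 and 4.83 (difference 0.03). Asns, asparagine synthetase, stood at 7.89, 8.34 and 8.28 in AKR spleens and at 7.73, 8.88 and 8.86 in DBA spleens. Array DBA 1 was thus the lowest of the 6 arrays for Asns and DBA 2 and DBA 3 were the highest, and a dimmer Asns probe set gave 7.52, 8.58 and 8.64 in the same 3 arrays. Over all arrays Asns differed by -0.32 ± 0.29, and without array DBA 1 by -0.70, where it passed.

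Genes of ER-associated degradation were positive in 7 of 7 cases, and 4 rose in AKR spleens. Sel1l, the adaptor of the HRD1 ubiquitin ligase, stood at 9.85, 10.04 and 10.01 in AKR spleens and at 9.30, 9.43 and 8.95 in DBA spleens. It differed by 0.74 ± 0.13 (limma adjusted p = 0.0137, 1.67-fold), 4 of its 5 probe sets passed over all probe sets, and the fifth differed by 0.41. Edem1, which delivers misfolded glycoproteins for degradation, stood at 9.21, 9.09 and 9.16 against 8.79, 8.75 and 8.49 (0.48 ± 0.10, limma adjusted p = 0.0203), and both of its probe sets passed. Of the derlins, which form part of the exit channel, Derl3 had values of 7.65, 7.72 and 8.03 against 7.44, 7.39 and 7.14 (0.48 ± 0.13). Derl2 rose by 0.27 ± 0.08, and Derl1, with a difference of 0.29 ± 0.09, did not pass. Syvn1, which encodes the ligase HRD1 itself, had a difference of 0.21 with overlapping crosses, and Herpud1, a stress-induced component of that complex, of 0.14.

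Of the 6 measured genes of the translocation channel and the TRAP complex, 1 rose, and their median difference was 0.08. Sec61a1, the pore of the translocation channel, stood at 9.9994, 9.88 and 9.89 against 9.63, 9.68 and 9.53 and rose by 0.31 ± 0.08 (limma adjusted p = 0.0364). The other 5 probe sets of Sec61a1 ran from -0.04 to 0.18 and did not pass. Sec61b, a small subunit of the channel, differed by 0.08, and the subunits of the TRAP complex beside it, Ssr1, Ssr2, Ssr3 and Ssr4, by 0.07, 0.07, 0.08 and 0.16. A dimmer Ssr1 probe set differed by 0.44 ± 0.11 and passed over all probe sets. Of the 4 signal peptidase subunits, which cleave signal peptides, 0 passed in limma and 2 had an unadjusted p under 0.05. Sec11c, a catalytic subunit, differed by 0.27, Spcs3 by 0.24, Spcs2 by 0.14 and Spcs1 by 0.00.

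**Figure D3:**
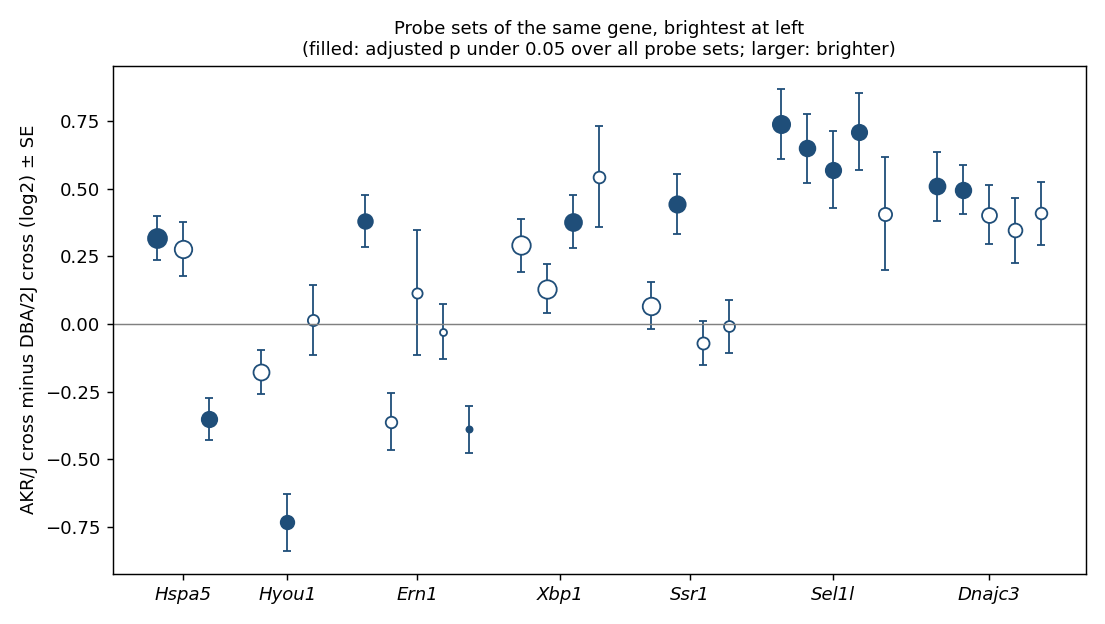
Difference between crosses (y axis, log2, AKR minus DBA, bars of 1 SE) for each probe set of 7 genes, ordered within a gene from the brightest at left, with larger circles for brighter probe sets and filled ones past the threshold over all probe sets. All 5 probe sets of Sel1l and of Dnajc3 lie above 0, whereas Hspa5 and Ern1 have filled circles on both sides of 0.

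Probe sets of the same gene disagreed in a few cases. The 42 genes had 100 probe sets in all. Hspa5 had a brightest and a second probe set at 0.32 and 0.28, and a dimmer one, of the type that can cross-hybridise, with -0.35 ± 0.08, which passed over all probe sets. That probe set stood at 7.84, 7.96 and 7.90 in AKR spleens and at 8.28, 8.19 and 8.28 in DBA spleens. With the mean of each gene's probe sets in place of the brightest, 9 of the 42 rose in AKR spleens and Hyou1 rose in DBA spleens, against 6.85% and 7.49% of all genes. Fitted over all 45037 probe sets, 10 of the 42 brightest probe sets passed, all higher in AKR spleens, against 6.29% of all genes.

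Array DBA 3, which was low in acinar markers, did not stand apart in these genes as a whole. The mean of the 42 was 8.98, 8.98 and 8.99 in arrays DBA 1, DBA 2 and DBA 3 and 9.24, 9.22 and 9.20 in AKR spleens. The median difference of array DBA 3 from the mean of the other 5 arrays was -0.14 over the 42 genes and 0.01 over all genes, and its median difference from DBA 1 and DBA 2 alone was 0.03. Since a single array is set against others here, and was singled out with its values known, these are descriptions with no test.

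At least 1.5-fold below the mean of the other 5 arrays lay 2 of the 42, Chac1 (-0.89) and Sel1l (-0.77), against 1.41% of all genes. At least 1.5-fold above lay Asns (0.64), against 2.83% of all genes. Against DBA 1 and DBA 2, Chac1 differed by -0.17, Sel1l by -0.41 and Asns by 0.56, so none reached 1.5-fold there. Array DBA 3 held the lowest of the 6 values for 15 of the 42 genes (35.7%), where this was so for 16.1% of all genes and 20.3% of genes with a mean of at least 8. Most of the 42 lay lower in DBA spleens, so this count partly restates the difference between crosses. Against DBA 1 and DBA 2 alone, array DBA 3 was lowest for 15 of the 42. With fewer reference arrays a lowest value is more frequent for any gene, and the share over all genes was not computed there. No excess within DBA spleens can be read from that count.

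Those low values were most frequent in ER-associated degradation, with 6 of 7 genes lowest in array DBA 3. Measured against DBA 1 and DBA 2, Sel1l differed by -0.41, Edem1 and Derl3 by -0.28 each, Syvn1 by -0.26, Derl2 by -0.11 and Derl1 by -0.10, while Herpud1 differed by 0.32. All 5 probe sets of Sel1l were lowest in that array, the dimmest at 5.68 where the other arrays lay between 6.41 and 6.75. The other genes lowest there were Dnajb9, Creld2, P4hb, Ern1, Xbp1, Atf6, Sec61a1, Ssr4 and Sec11c. Highest in that array were Hyou1 (8.69), Canx (10.95), Pdia4 (8.53), Eif2ak3 (9.22), Ddit3 (7.54) and Spcs1 (11.02).

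**Figure D4:**
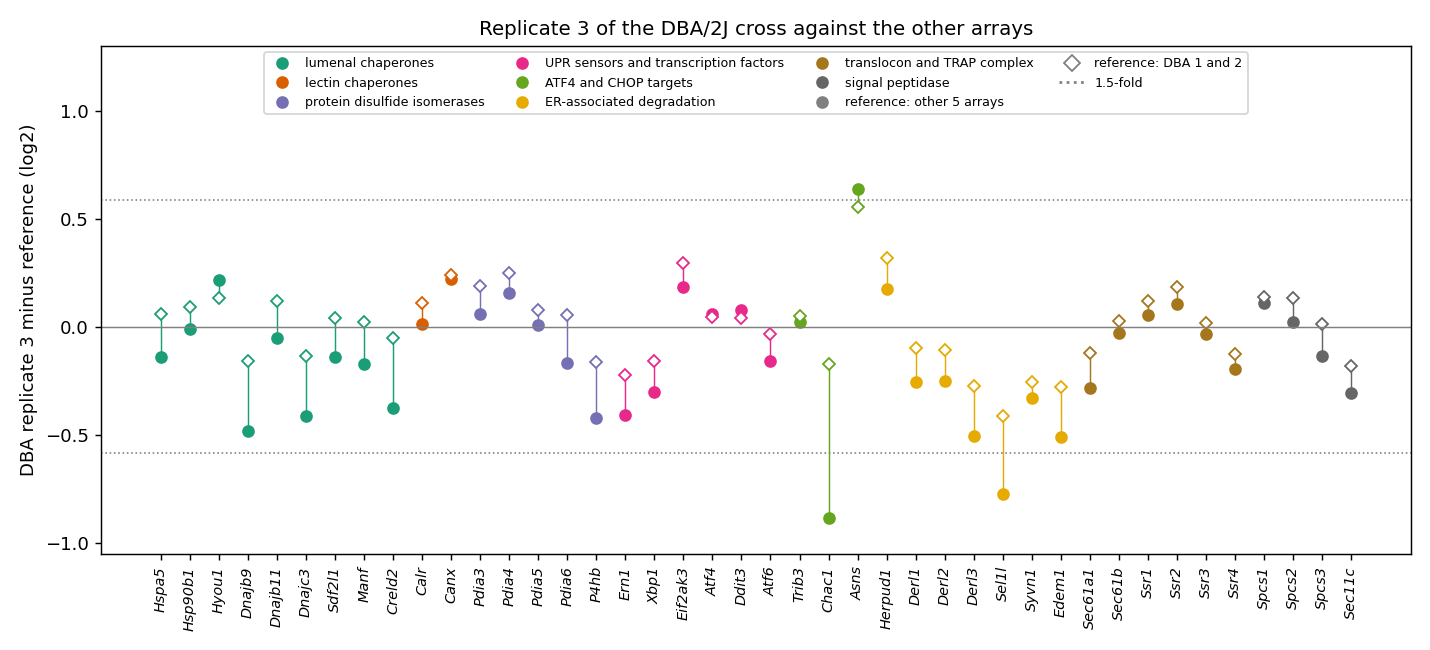
Array DBA 3 minus the mean of the other 5 arrays (filled circles) and minus the mean of DBA 1 and DBA 2 (open diamonds), in log2 units, for each of the 42 genes coloured by role. Dotted lines mark 1.5-fold. The diamonds lie closer to 0 than the circles for Chac1 and Sel1l, and no diamond passes a dotted line.

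Markers of other cells moved with the crosses and are given beside these results. The acinar marker mean lay higher in all AKR arrays, and 26 of 26 acinar genes had all AKR arrays above all DBA arrays. Of these 26, 4 passed in the AKR direction with all arrays and 9 without array DBA 3. Within DBA spleens that mean changed from 11.18 to 5.16 between arrays DBA 2 and DBA 3, while the mean of the ER genes was 8.98 and 8.99. Defining acinar genes in array DBA 3 were Cela1 at 8.64, Ctrb1 at 6.76, Prss2 at 6.70 and Cela2a at 6.16, where their means over the other 5 arrays were 13.84, 13.95, 13.77 and 13.91. The plasma cell list, which holds 15 measured genes, had means of 9.06 to 9.20 in AKR spleens and 8.92 to 9.13 in DBA spleens, with 3 higher in AKR spleens and Igha higher in DBA spleens. Those 3 include Fkbp11 (1.14) and Edem2 (0.49), which also stand in the wider lists of ER genes below. Jchain (-0.02) and Ighm (-0.09) did not pass, and differences were positive for 11 of the 15. Erythroid markers had means of 7.66 to 8.29 against 9.42 to 10.24, with 13 of 13 higher in DBA spleens and 13 of 13 at least 1.5-fold higher in array DBA 3 than in the other 5 arrays. The AKR arrays are among those 5. Against DBA 1 and DBA 2 alone the erythroid median difference of array DBA 3 was 0.44, under 1.5-fold. Dividing cell markers had means of 7.04 to 7.63 against 8.09 to 9.02, with 12 of 12 higher in DBA spleens. In array DBA 3, 12 of 12 were at least 1.5-fold higher than in the other 5 arrays, with a median of 0.56 against DBA 1 and DBA 2 alone. T cell markers had means of 8.36 to 8.45 against 7.88 to 7.94, with 11 of 11 higher in AKR spleens. The part of these cell types in the ER gene differences was not tested.

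**Figure D5:**
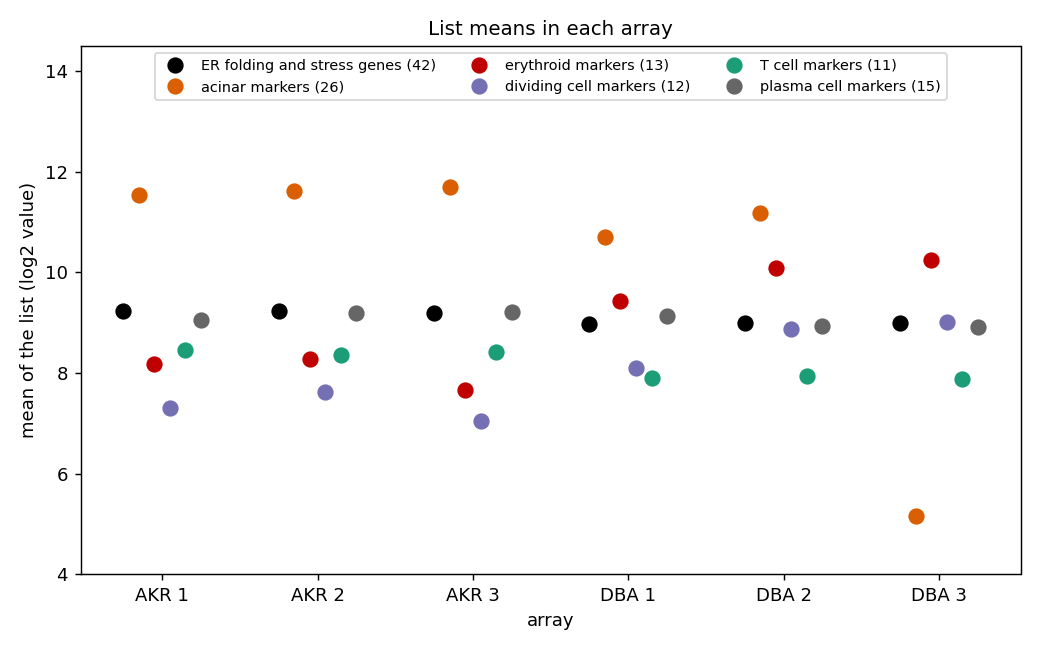
Mean log2 value (y axis) of the 42 ER genes and of 5 marker lists in each of the 6 arrays (x axis), with the number of genes in brackets. The acinar mean is 5.16 in array DBA 3 and above 10 elsewhere, while the ER gene mean lies between 8.98 and 9.24 in all arrays.

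A wider set of 126 other measured genes of the secretory pathway and its stress response was examined in the same fit. Of these, 15 rose in AKR spleens and 5 in DBA spleens, with a median difference of 0.15. At this threshold the first share is close to the 8.91% of all genes, and the second lies below 8.31%. At an unadjusted p under 0.05 in limma the counts were 42 and 9, where 18.4% and 17.8% of all genes lay. The difference was positive for 93 of the 126. All AKR arrays lay above all DBA arrays for 63 of the 126, against 22.0% of all genes. When array DBA 3 was left out, 6 and 2 passed. Among 20 other folding factors, 4 rose in AKR spleens, among them the glycoprotein folding sensor Uggt1 (0.34) and Mcfd2 (0.57), which with Lman1 carries cargo out of the ER. The exception was Hspa13, an Hsp70 family member of microsomes, which stood at 6.86, 6.89 and 6.88 in AKR spleens and at 8.15, 8.04 and 8.13 in DBA spleens. Hspa13 differed by -1.23, 2.35-fold toward DBA spleens, with almost no spread inside either cross. Its brightest probe set was used, and its direction is opposite to that of Hspa5.

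Among 19 other sensors and modulators, 2 rose in AKR spleens and 3 in DBA spleens. Ppp1r15a (GADD34), which guides the phosphatase that reverses PERK signalling, stood at 8.12, 8.18 and 8.23 against 8.85, 9.18 and 9.48 (-0.99), and Eif2ak1, the heme-regulated eIF2α kinase of red cell precursors, differed by -0.49. Creb3l3 differed by -0.29. Bhlha15 (MIST1), a transcription factor of secretory cells that also stands in the acinar list, stood at 7.28, 7.32 and 7.67 against 6.63, 6.60 and 5.34 and rose by 1.23. Among 19 other degradation genes, 3 rose in AKR spleens: Selenos (0.55), Edem2 (0.49), which also stands in the plasma cell list, and the lectin Os9 (0.32).

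Of 13 other oxidoreductases, 3 rose in AKR spleens, Tmx3 (0.34), the PDI oxidase Ero1a (0.26) and the peroxiredoxin Prdx4 (0.42). Pdia2, the isomerase of the pancreas, stood at 10.87, 10.99 and 11.21 in AKR spleens and at 9.37, 10.47 and 5.9999 in DBA spleens, and did not pass (limma adjusted p = 0.11). Of 26 genes of targeting, translocation and glycosylation, Tram1 (0.41) and the signal recognition particle receptor Srpr (0.31) rose in AKR spleens. Of 29 other ATF4 targets, Psat1 of serine synthesis rose in AKR spleens (0.35) and the amino acid transporter Slc7a5 in DBA spleens (-0.56). Nupr1, a stress-induced nuclear protein, stood at 9.71, 10.35 and 10.36 against 7.95, 9.58 and 5.87, and did not pass. Pdia2, Nupr1, Bhlha15 and Fkbp11 had differences between array DBA 3 and the other 5 arrays of -4.58, -3.72, -1.76 and -1.46, and no gene of the 42 reached these.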

How the data were processed

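Per the labels' protocols, total RNA came from snap-frozen tissue by Trizol extraction and carried a biotin label. Each spleen had 1 array. The authors deposited log2 values for 45101 probe sets, already on a common scale. RMA and MAS5 are named in the submitters' processing notes, with no role given. Detection calls are not given in the sources used here, and the number of arrays limits precision. Effects of parental variants under probes were not tested.

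Control probe sets (64) were left out, leaving 45037. By the platform annotation 34945 had a single symbol, 932 had several and 9160 were unnamed here. Genes (18193) were represented by the brightest such probe set. Differences were tested with limma 3.58.1 (lmFit, eBayes) in R 4.3.3, without covariates, on all 6 arrays, with Benjamini-Hochberg adjustment over all genes. Statements on other probe sets use a fit over all probe sets. With 3 arrays a side the smallest exact permutation p is 0.1. The procedure was tested on simulated data. No arrays were duplicates (121 to 181 identical values per pair).

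The 43 members and all lists were chosen with earlier results of these data known. All members could be named. From each pathway list up to 4 of the genes that passed, by smallest adjusted p, and up to 4 with the largest difference of array DBA 3 from the other 5 could be named. Of the marker lists, which covered acinar, islet, plasma, B, T, erythroid, red pulp macrophage, dividing, stromal and fat cells, the 4 brightest and the 4 first listed could be named, as could other probe sets of a member that differed in direction or call. Alternatives were median centring, quantile normalization, removal of the dimmest genes (under the 40th percentile), trended and robust eBayes (statmod 1.5.0), weights per array, a block on the replicate number, removal of 1 array at a time, averaging the probe sets of a gene, a fit over probe sets, and, for array DBA 3, other reference arrays and a 2-fold threshold. Files were read with the R package data.table (version 1.17.8), and figures drawn with matplotlib 3.10.9 in Python 3.11.15.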

Additional observations from a re-analysis of the deposited data

How the results depend on the processing

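Of the 42 genes, 14 rose in AKR spleens in the fit reported. The count was 6 after quantile normalization, 9 with averaged probe sets and 9 with the replicate number as a block (replicate block), where 4.21%, 6.85% and 7.86% of all genes rose. It was 3 to 13 when 1 array was left out. With median centring, array weights, dim genes left out, a trended and robust variance or a fit over all probe sets it stayed within 1.5 times, at 17, 19, 16, 18 and 10, where 11.3%, 12.7%, 16.1%, 10.3% and 6.29% of all genes rose. The count higher in DBA spleens was 0 to 1 when 1 array was left out (Asns without DBA 1) and 1 with averaged probe sets (Hyou1). Deviations of same-numbered arrays correlated at 0.20, 0.11 and 0.05, and those of differently numbered arrays of the 2 crosses at -0.16 to 0.06. The replicate numbers were not taken as pairing in the main fit. With so few arrays these values cannot decide whether the numbers mark pairs. The median difference of 0.22 was 0.25 with median centring, 0.13 after quantile normalization, 0.24 with array weights, 0.16 with averaged probe sets and 0.20 to 0.21 with 1 array left out. Ern1 changed sign with averaged probe sets (-0.056). Chac1 and Creld2 passed whichever array was left out.

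In array DBA 3, 2 genes lay at least 1.5-fold lower and 1 higher than in the other 5 arrays. Against DBA 1 and DBA 2 these counts were 0 and 0, and the median was 0.034 where it was -0.14 against all 5. Against the AKR arrays alone 8 were lower, and 27 lay below all reference arrays, where 15 did against all 5. Fewer reference arrays are easier to lie below, so the 27 and the 15 are not comparable. The shares over all genes were not computed against the AKR arrays alone. At a 2-fold threshold the counts were 0 and 0, with dim genes left out 1 was lower, and with 1 reference array left out 0 to 1 was higher. The cause of these changes was not tested. Arrays carry no counts, and genes near background, such as Trib3, can show little.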

Other observations

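Pancreatic islet markers did not share the range of the acinar ones. The insulin gene Ins2 stood at 6.94, 7.42 and 6.65 in AKR spleens, at 6.59 and 6.81 in DBA 1 and DBA 2 and at 5.03 in DBA 3, and did not pass (limma adjusted p = 0.185). Like the acinar markers, Ins2 was thus lowest in array DBA 3, with a difference of -1.85 from the mean of the other 5. The islet hormone gene Sst lay between 4.84 and 5.05 in all 6 arrays. The fat cell gene Adipoq ranged from 4.12 in DBA 2 to 7.47 in AKR 3 and did not pass. Red pulp macrophage markers had list means between 9.94 and 10.12 in all 6 arrays, and 1 of 12 rose in AKR spleens.

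Among B cell markers, 3 of 9 rose in AKR spleens, and stromal markers rose in 2 of 8, with list means of 8.39 to 8.48 against 8.21 to 8.33. Cr2, which rose by 0.45, stands in both lists and is counted in each. The stress-induced mTORC1 inhibitor gene Ddit4 varied within both crosses, at 9.86, 10.32 and 11.21 in AKR spleens and at 9.01, 10.78 and 10.82 in DBA spleens. Like Asns, Ddit4 was lowest of the 6 arrays in DBA 1.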
